A study of Rattus norvegicus with 9 samples.

Results

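The genes described here encode the nuclear subunits of the mitochondrial respiratory chain and of ATP synthase, together with some of their assembly factors. They were chosen by name alone. A gene was taken when its symbol began with Ndufa, Ndufb, Ndufc, Ndufs, Ndufv, Uqcr, Atp5 or Cox4 to Cox8, or was Sdha, Sdhb, Sdhc or Sdhd, and when it reached at least 1 FPKM in at least 3 of the 9 libraries. FPKM counts fragments scaled to transcript length and to the mapped fragments of the library, so that levels of different genes can be set side by side per length. The rule gave 85 genes of the 14636 in the table and of the 10789 that passed the same filter. Complex I has 42 of them, complex II 4, complex III 8, complex IV 14 and complex V, the ATP synthase, 17. These counts follow the symbols. The 17 include Atp5s and Atp5sl, now named Dmac2l and Dmac2, which were classed apart from the subunits of the synthase. No gene with these names failed the filter, so there is none just outside it to show. The Nduf symbols cover 7 core subunits, 26 accessory subunits, 6 assembly factors (Ndufaf1, Ndufaf3, Ndufaf4, Ndufaf5, Ndufaf6 and Ndufaf7) and 3 other genes (Ndufa4, Ndufa4l2 and Ndufa10l1).

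The cells were primary cardiac myocytes of 2-day-old Sprague Dawley rats, obtained by enzyme kit and Percoll gradient and grown in medium with 15% fetal bovine serum. The 3 groups of 3 libraries were transfected to knock down Llgl1 together with Llgl2 (called Llgl1/2 siRNA), to knock down Yap (Yap siRNA), or with universal negative control siRNA (control siRNA). Llgl1 and Llgl2 encode basolateral cell polarity proteins, and Yap1 encodes YAP, the coactivator restrained by the Hippo kinases. Per the labels each target was hit with 2 siRNAs at 25 nM each, added 16 h after plating, and all groups were collected 48 h after transfection. The Llgl1/2 group had 2 targets and the Yap group 1, so the total siRNA load and the target cannot be told apart. The labels do not say that the 3 libraries of a group came from separate cultures, so the p-values below measure only how these libraries vary, and that variation may be technical.

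Complex I oxidises NADH and complex II oxidises succinate, and both pass electrons through coenzyme Q to complex III, cytochrome c and complex IV, which reduces oxygen. Complexes I, III and IV pump protons, and complex V uses the proton gradient to make ATP. Most of the subunits are encoded in the nucleus, and the catalytic membrane core of complexes I, III, IV and V also holds subunits encoded in mitochondrial DNA. Heart muscle is rich in these complexes, and it uses muscle isoforms of several complex IV subunits, whose share increases as the heart matures after birth.

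The Llgl1/2 siRNA libraries averaged 4.72 FPKM of Llgl1 and 7.15 FPKM of Llgl2, against 12.1 and 13.6 FPKM in the control siRNA libraries, and the Yap siRNA libraries averaged 5.44 FPKM of Yap1 against 59.7 FPKM in the controls. Llgl1 and Llgl2 were also lower after Yap siRNA, at 8.84 and 9.60 FPKM against 12.1 and 13.6 FPKM in the controls (changes -0.43 and -0.48, adjusted p = 0.0064 and 0.0086 in limma). Cardiomyocyte markers were abundant in every library, as the labelled cell type requires. Their summed level over 13 genes was 25358 to 27431 FPKM after Llgl1/2 siRNA and 31359 to 34766 FPKM after Yap siRNA, against 20916 to 24455 FPKM in the controls. Counts of markers are to be read against all genes tested, of which limma called 22.1% higher and 18.1% lower after Llgl1/2 siRNA, and 20.5% higher and 27.5% lower after Yap siRNA. Of these 13 markers 9 were higher and 1 lower after Llgl1/2 siRNA, and 10 were higher and 3 lower after Yap siRNA. The 9 endothelial markers summed to 257 to 269 FPKM after Llgl1/2 siRNA and 369 to 428 FPKM after Yap siRNA, against 517 to 613 FPKM in the controls, and 8 were lower after Llgl1/2 siRNA and 5 after Yap siRNA. The 7 smooth muscle and pericyte markers summed to 1614 to 1981 FPKM after Llgl1/2 siRNA and 703 to 807 FPKM after Yap siRNA, against 2995 to 3111 FPKM in the controls, with 2 higher and 2 lower after Llgl1/2 siRNA and 3 higher and 4 lower after Yap siRNA. Fibroblast markers summed to 317 to 404 FPKM after Llgl1/2 siRNA and 392 to 485 FPKM after Yap siRNA, against 346 to 502 FPKM in the controls, and of the 10 genes 1 was higher and 3 lower after Llgl1/2 siRNA, and 4 higher and 0 lower after Yap siRNA. Leukocyte markers summed to 97.3 to 125 FPKM after Llgl1/2 siRNA and 121 to 170.1 FPKM after Yap siRNA, against 130.4 to 163 FPKM in the controls, and of the 7 genes 4 were lower after Llgl1/2 siRNA, and 1 higher and 2 lower after Yap siRNA. Epicardial markers summed to 39.5 to 50.3 FPKM after Llgl1/2 siRNA and 5.96 to 10.7 FPKM after Yap siRNA, against 21.4 to 29.8 FPKM in the controls, and of the 4 genes 2 were higher after Llgl1/2 siRNA and 3 lower after Yap siRNA. Erythroid markers summed to 117 to 180.3 FPKM after Llgl1/2 siRNA and 84.3 to 145 FPKM after Yap siRNA, against 148 to 179 FPKM in the controls, with 1 of 3 lower after Yap siRNA. Most of the smooth muscle and pericyte sums came from Acta2. It averaged 1191 FPKM after Llgl1/2 siRNA and 427 FPKM after Yap siRNA, against 2353 FPKM in the controls. Krt18 of the epicardial list averaged 28.1 FPKM after Llgl1/2 siRNA and 1.71 FPKM after Yap siRNA, against 13.4 FPKM in the controls. Rgs5 of the pericyte list and Cd163 of the leukocyte list were listed at 0 in at least 1 library. Fewer cells of a type and less RNA per cell cannot be told apart in these bulk samples, and the part of the cell makeup in the results below was not tested.

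Transcripts of the respiratory chain and ATP synthase made up a larger share of the measured RNA in both knockdowns. The 85 genes summed to 41501, 39197 and 39147 FPKM in the Llgl1/2 siRNA libraries and to 44039, 42217 and 42583 FPKM in the Yap siRNA libraries, against 32546, 30303 and 34539 FPKM in the control siRNA libraries. The controls were the 3 lowest libraries, and the Yap siRNA libraries the 3 highest. The mean sum was 1.23 times that of the controls after Llgl1/2 siRNA and 1.32 times after Yap siRNA. As a share of all FPKM in a library the genes held 6.82% to 6.95% after Llgl1/2 siRNA and 6.94% to 7.15% after Yap siRNA, against 5.28% to 5.97% in the controls. These sums are given as a description, without a test.

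The mean sum was higher than in the controls for every complex, and complex II had the smallest ratio after Yap siRNA. After Llgl1/2 siRNA the mean sum against the controls was 1.23 times for complex I, 1.18 for complex II, 1.25 for complex III, 1.28 for complex IV and 1.18 for complex V. After Yap siRNA the same ratios were 1.35, 1.11, 1.26, 1.34 and 1.33. Complex II, whose 4 subunits are all nuclear, summed to 1134, 1079 and 1176 FPKM after Yap siRNA, against 1024, 938 and 1083 FPKM in the controls, so that the lowest Yap siRNA library lay below the highest control. In the other complexes the libraries of either knockdown did not overlap the controls. Heart muscle's Cox6a2 was the most abundant of the 85 transcripts and by itself supplied 3435 to 4537 FPKM in the knockdown libraries.

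**Figure D1:**
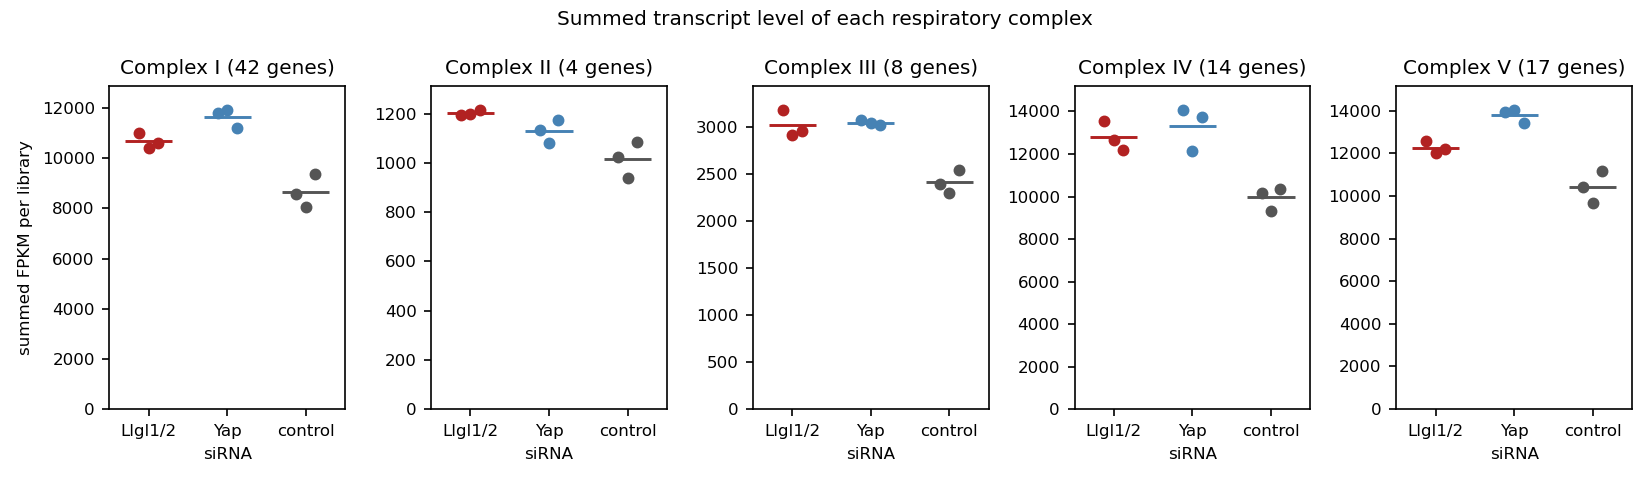
Summed FPKM of the genes of each complex (y axis, from 0) in every library, by siRNA group (x axis); points are libraries and lines are group means of 3 libraries. Control siRNA libraries are lowest in complexes I, III, IV and V, and in complex II the lowest Yap siRNA library (1079 FPKM) lies below the highest control (1083 FPKM).

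After Llgl1/2 siRNA, 48 of the 85 genes were higher than in the controls, none was lower, and 37 were not called. The 48, like the 25 of complex I below, include Ndufa4l2, which passed the filter through knockdown libraries only. Genes were named mainly by smallest p within a complex, and Atp5b, Uqcrb, Ndufa4, Ndufs6, Cox7a2l, Cox6c, Ppargc1a, Pprc1 and the genes of Yap siRNA library 2 were chosen after their values were seen. Calls here and below rest on limma's test of log2(FPKM + 1) over all 10789 genes, with Benjamini-Hochberg adjustment and a threshold of 0.05, and every change is on that scale, which understates changes of genes with low values. Over all genes tested, 22.1% were called higher and 18.1% lower. The median change of the 85 genes was 0.26, against 0.03 for all genes. By complex, the number higher was 25 of 42 in complex I, 3 of 4 in complex II, 6 of 8 in complex III, 6 of 14 in complex IV and 8 of 17 in complex V. Without control siRNA library 2, which had the lowest sum, 30 genes were called higher, and without Llgl1/2 siRNA library 1 or control siRNA library 1, 1 gene was called lower.

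Among complex I genes the accessory subunits, which surround the catalytic core, had 18 of 26 members higher, the core subunits 4 of 7 and the assembly factors 1 of 6. Ndufb9, an accessory subunit of the membrane arm, had 978, 919 and 919 FPKM after Llgl1/2 siRNA, against 593, 572 and 690 FPKM in the controls. Ndufv3, an accessory subunit of the NADH-oxidising module, had 248, 232 and 227 FPKM after Llgl1/2 siRNA, against 145, 141 and 179 FPKM in the controls. In both genes every knockdown library lay above every control, and both rose by 0.61 ± 0.09 (SE, limma, adjusted p = 0.00021 for Ndufb9 and 0.00015 for Ndufv3). Ndufb4, another membrane arm subunit, had 555, 508 and 518.5 FPKM after Llgl1/2 siRNA, against 364, 351 and 401 FPKM in the controls, again without overlap (log2 change 0.50 ± 0.08, adjusted p = 0.00018 in limma). Ndufb9 overlaps the gene Tatdn1 in the current rat annotation, and Ndufb4 and Ndufv3 have named copies among which the authors' counting could divide reads, so their levels are uncertain to that degree. Of the 85 genes, 40 have named copies and 18 overlap a protein-coding gene. This is mentioned for only some of them, so a gene without mention is not thereby free of either. Among the core subunits, Ndufv1 and Ndufv2 of the NADH-oxidising module changed by 0.34 and 0.24. The single assembly factor that rose was Ndufaf7, a methyltransferase needed to assemble the complex, at 11.9, 13.1 and 13.0 FPKM after Llgl1/2 siRNA, against 9.40, 8.35 and 9.20 FPKM in the controls, without overlap (change 0.45 ± 0.09, adjusted p = 0.002 in limma).

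In complex II, the flavoprotein subunit Sdha, the iron-sulfur subunit Sdhb and the membrane anchor Sdhc rose after Llgl1/2 siRNA. Sdha had 281, 300.4 and 315 FPKM in the Llgl1/2 siRNA libraries, against 233, 227 and 263 FPKM in the controls. Sdhb had 382, 365 and 385 FPKM after Llgl1/2 siRNA, against 299.9, 277 and 329 FPKM in the controls. Neither gene overlapped between the groups, and the changes were 0.31 ± 0.08 for Sdha and 0.32 ± 0.08 for Sdhb (SE; limma, adjusted p = 0.0051 and 0.0038). Sdhc had 298, 289 and 288 FPKM after Llgl1/2 siRNA, against 259, 228 and 256 FPKM in the controls, a change of 0.24 ± 0.08 (limma, adjusted p = 0.033). The call of Sdhc was lost under median-ratio scaling (adjusted p = 0.055) and without Llgl1/2 siRNA library 1, 2 or 3 or control library 2 (adjusted p = 0.085, 0.074, 0.072 and 0.15). The other anchor, Sdhd, had a change of 0.07 ± 0.07 (limma, adjusted p = 0.5).

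In complex III the core proteins Uqcrc1 and Uqcrc2 and the Rieske iron-sulfur protein Uqcrfs1 rose together with small subunits. Their changes were 0.27 ± 0.10, 0.27 ± 0.07 and 0.34 ± 0.09 (SE; limma, adjusted p = 0.046, 0.0054 and 0.0067). The call of Uqcrc1 was lost under median-ratio scaling, and 2 of these 3 genes were called with no filter and without any one of Llgl1/2 siRNA libraries 1, 2 and 3, control libraries 1 and 2 and Yap siRNA library 1. Uqcr10, a small subunit, had 446, 394 and 408 FPKM after Llgl1/2 siRNA, against 269, 283 and 310.5 FPKM in the controls. This was the steepest rise in complex III (0.53 ± 0.08, adjusted p = 0.00011 in limma), and the groups did not overlap. Uqcr11, another small subunit, had 544, 480.4 and 516 FPKM after Llgl1/2 siRNA, against 381, 378 and 418 FPKM in the controls. Uqcrh, the hinge protein that helps cytochrome c to dock, had 575, 504 and 471 FPKM after Llgl1/2 siRNA, against 366, 371 and 445 FPKM in the controls. All libraries of the knockdown lay above all controls for both, and each had a change of 0.39 (limma, adjusted p = 0.00087 for Uqcr11 and 0.0039 for Uqcrh).

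The complex IV genes that rose after Llgl1/2 siRNA were Cox4i2, Cox5b, Cox6a1, Cox6a2, Cox7b and Cox7c. Cox6a2, the heart and skeletal muscle isoform of subunit Cox6a, had 4518, 3903 and 3711 FPKM in the Llgl1/2 siRNA libraries, against 2589, 2605 and 2834 FPKM in the controls. Its counterpart of other tissues, Cox6a1, had 1488, 1293 and 1355 FPKM after Llgl1/2 siRNA, against 1027, 965 and 1128 FPKM in the controls. Both isoforms were thus higher in every knockdown library, by 0.59 ± 0.11 and 0.41 ± 0.11 (SE; limma, adjusted p = 0.00083 and 0.0073). Cox5b, a subunit on the matrix side, had 1332, 1171 and 1136 FPKM after Llgl1/2 siRNA, against 904, 808 and 969 FPKM in the controls (change 0.44 ± 0.09, adjusted p = 0.0015 in limma). The abundant subunits Cox4i1 and Cox5a were not called, with changes of 0.16 and 0.10. Cox6c ranged from 583 to 1001 FPKM in the controls alone, and it was not called.

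In ATP synthase, 3 of the 5 subunits of the catalytic F1 head (median change 0.22) and 1 of the 4 genes of the peripheral stalk, which holds the head still (median change 0.17), were higher after Llgl1/2 siRNA. The difference between these classes was not tested. Atp5b, the catalytic beta subunit, had 2417, 2477 and 2450 FPKM after Llgl1/2 siRNA, against 2049, 1969 and 2296 FPKM in the controls, a change of 0.22 ± 0.08 (limma, adjusted p = 0.033). Under median-ratio scaling Atp5b and Atp5d, the delta subunit, lost their calls, which left 1 of 5. The F1 count was also 1 without Llgl1/2 siRNA library 1 or 2 or control library 1, and 0 without control library 2. Atp5j2, the membrane subunit f, had 1058, 936 and 943 FPKM after Llgl1/2 siRNA, against 672, 699 and 828 FPKM in the controls. Atp5g1, which encodes subunit c of the rotating ring, had 681, 587 and 681 FPKM after Llgl1/2 siRNA, against 497, 436 and 521 FPKM in the controls. Both stood above all controls, each with a change of 0.42 (limma, adjusted p = 0.0022 for Atp5j2 and 0.0037 for Atp5g1), and both have named copies in the rat genome. The smallest p among the Atp5 symbols belonged to the scarce transcript Atp5s, now named Dmac2l and classed apart from the subunits. It had 6.66, 8.66 and 7.53 FPKM after Llgl1/2 siRNA, against 4.46, 4.70 and 4.18 FPKM in the controls (change 0.66 ± 0.12, adjusted p = 0.0007 in limma).

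After Yap siRNA, 43 of the 85 genes were higher than in the controls, 1 was lower and 41 were not called. The 43, like the 19 of complex I below, include Ndufa4l2, which passed the filter through knockdown libraries only. Among all genes tested the shares were 20.5% higher and 27.5% lower. The median change was 0.22 for the 85 genes, against -0.06 for all genes. By complex, 19 of 42 were higher in complex I, 2 of 4 in complex II, 4 of 8 in complex III, 8 of 14 in complex IV and 10 of 17 in complex V. The changes covered a wider range than after Llgl1/2 siRNA, from -0.64 for Cox6b2, which was not called, to 1.80 for Atp5i. The same control libraries served both comparisons, so the lists of genes called in each are not independent.

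**Figure D2:**
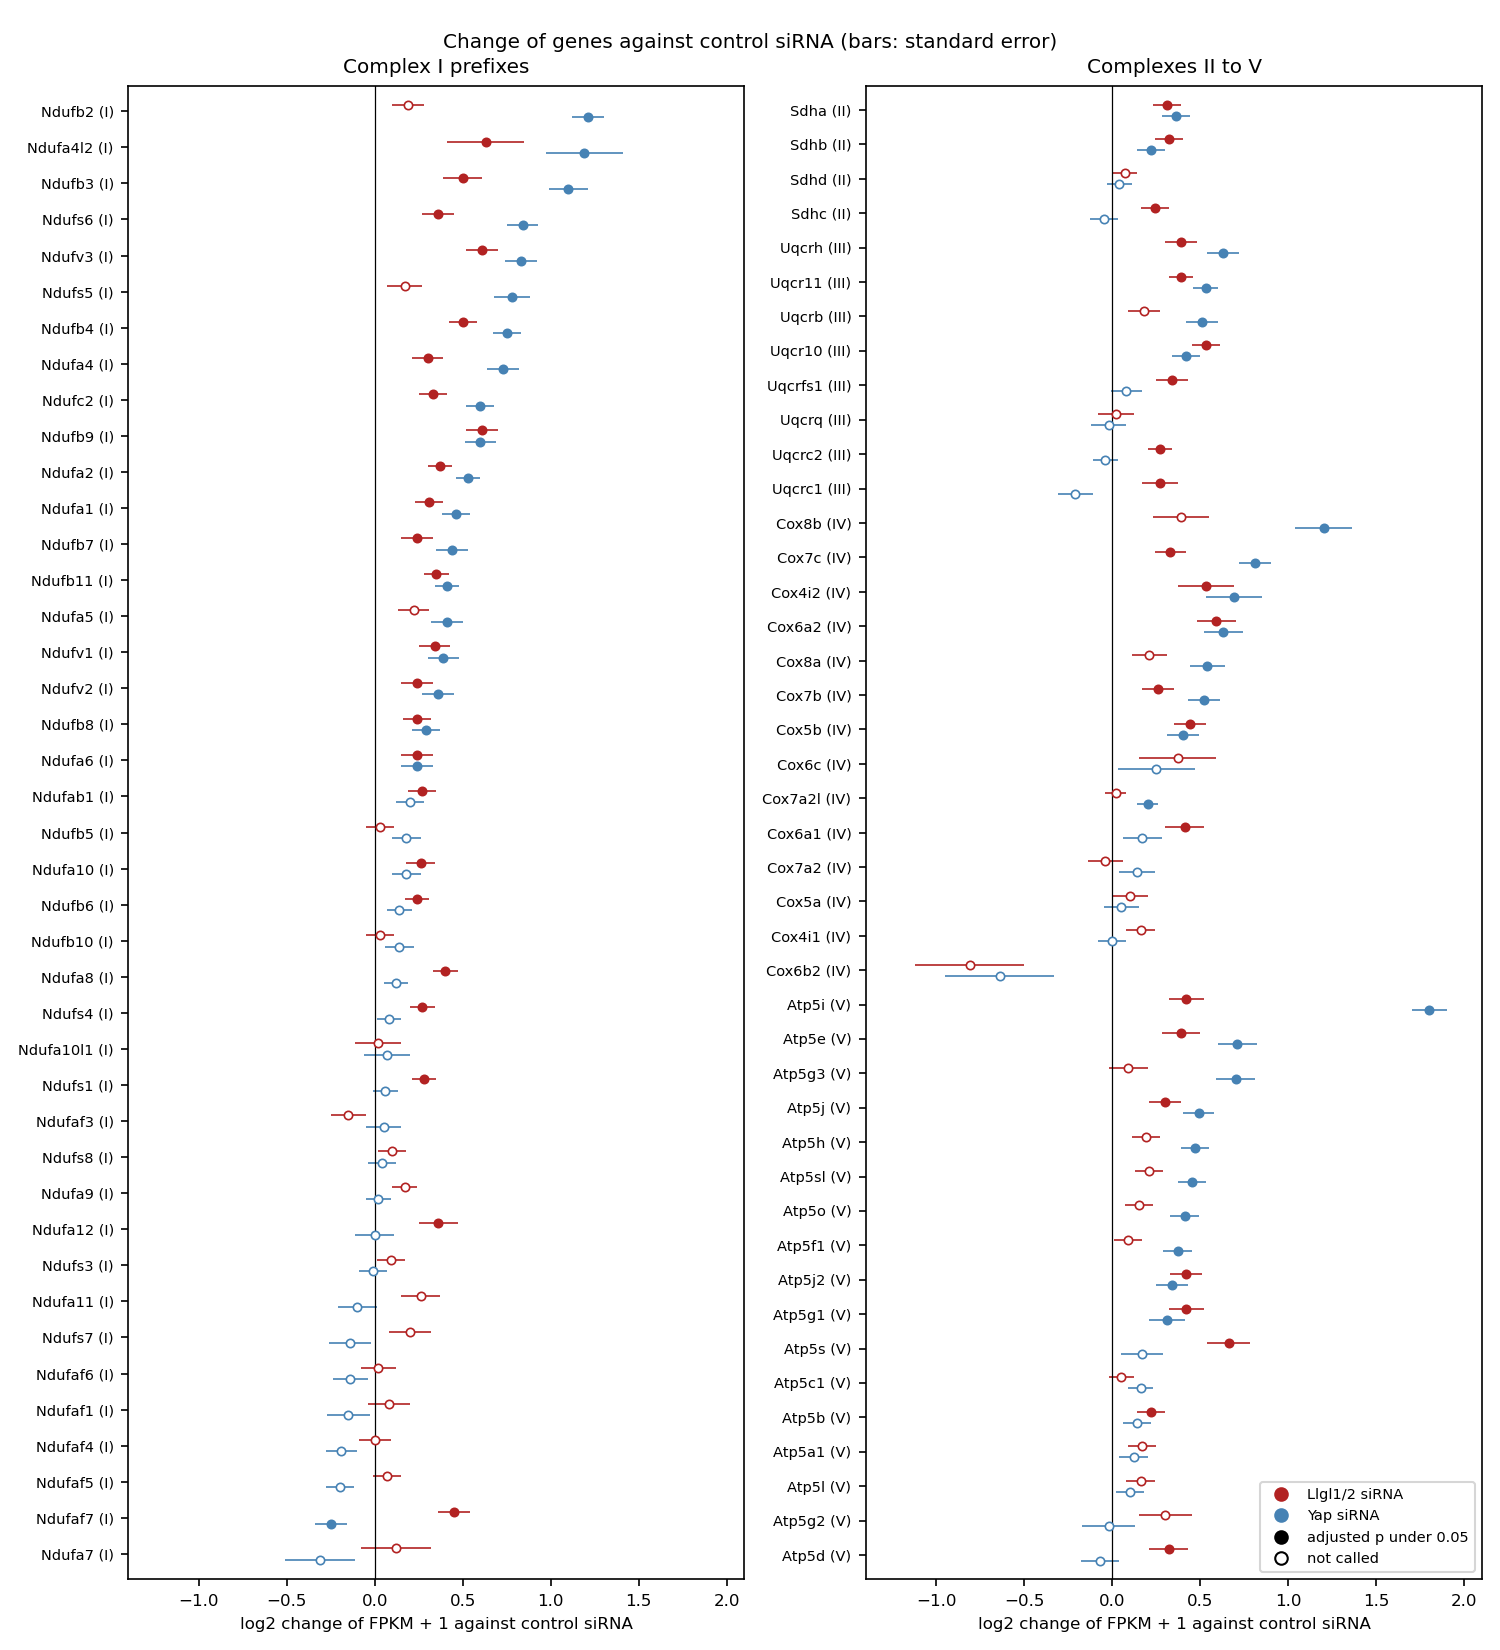
Log2 change of FPKM + 1 against control siRNA (x axis) for the 85 genes except 1 that is not shown (y axis, complex in brackets), Llgl1/2 siRNA in red and Yap siRNA in blue; bars are standard errors from limma's fit of 9 libraries, and filled points have an adjusted p under 0.05. All filled red points lie above 0, and of the filled blue points Ndufaf7 alone lies below 0; Atp5i has the largest change, at 1.80 after Yap siRNA.

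The steepest rise belonged to Atp5i, which encodes subunit e, a small membrane subunit of ATP synthase found where its dimers meet. Atp5i had 1712, 1885 and 1519 FPKM in the Yap siRNA libraries, against 463, 446 and 560.1 FPKM in the controls. The lowest Yap siRNA library was far above the highest control, the mean was 3.48 times that of the controls, and the change was 1.80 ± 0.10 (SE; limma, adjusted p = 1.4e-08). In the Llgl1/2 siRNA libraries Atp5i stood at 692, 628 and 643 FPKM, between these groups. It was called higher than in the controls there too (change 0.42 ± 0.10, adjusted p = 0.0039 in limma). Atp5e, the epsilon subunit of the F1 head, had 763, 770 and 723 FPKM after Yap siRNA, against 444, 406 and 538 FPKM in the controls (change 0.71 ± 0.11, adjusted p = 0.00011 in limma). It was the only F1 gene called higher after Yap siRNA: the catalytic Atp5b had 2233, 2365 and 2362 FPKM after Yap siRNA, against 2049, 1969 and 2296 FPKM in the controls, with overlap and an adjusted p of 0.14 in limma. All 4 genes of the peripheral stalk rose after Yap siRNA (Atp5f1, Atp5h, Atp5j and Atp5o), by 0.37 to 0.49. Atp5j overlaps Gabpa, and all 4 have named copies.

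In complex I the accessory subunits had 15 of 26 members higher after Yap siRNA, and the core subunits 2 of 7, namely Ndufv1 and Ndufv2. Ndufb2, a small membrane arm subunit, had 379.9, 402 and 341 FPKM after Yap siRNA, against 156, 149 and 182 FPKM in the controls. Ndufb3, a neighbour in the same arm, had 404, 532 and 398 FPKM after Yap siRNA, against 199, 188 and 232 FPKM in the controls. The means were 2.31 and 2.15 times those of the controls, with no overlap between groups, and the genes changed by 1.21 ± 0.09 and 1.10 ± 0.11 (SE; limma, adjusted p = 3.8e-07 and 3.3e-06). Ndufb4 had 661, 605 and 607 FPKM after Yap siRNA, and its change was 0.75 ± 0.08 (limma, adjusted p = 3.5e-06). Ndufb2 overlaps Braf in the annotation, and Ndufb3 has named copies.

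None of the 6 Ndufaf genes taken by the name rule rose after Yap siRNA, and Ndufaf7 was the only one of the 85 genes called lower. It had 7.15, 7.11 and 7.99 FPKM after Yap siRNA, against 9.40, 8.35 and 9.20 FPKM in the controls, without overlap (change -0.25 ± 0.09, adjusted p = 0.045 in limma). The call is close to the threshold and was lost under both other scalings (adjusted p = 0.084 to 0.19). It was also lost without any of Yap siRNA libraries 1 and 2, control libraries 1 and 3 and Llgl1/2 siRNA libraries 2 and 3, at adjusted p of 0.06 to 0.14. Ndufs6 is listed among the accessory subunits, at 525, 570 and 543 FPKM after Yap siRNA against 303, 268 and 345 FPKM in the controls, but its gene ID belongs to a pseudogene in the current RefSeq annotation, so its identity is uncertain. Ndufa4, first assigned to complex I and now counted with complex IV, had 1237, 1201 and 997 FPKM after Yap siRNA, against 680, 644 and 740.3 FPKM in the controls, all higher (change 0.73 ± 0.09, adjusted p = 2e-05 in limma).

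The 3 core and Rieske genes of complex III were not called after Yap siRNA, with changes of -0.21 to 0.08, while 4 of the 5 small subunits rose. Uqcr11 had 568, 563 and 574 FPKM after Yap siRNA, Uqcrh 628, 610.1 and 591 FPKM and Uqcr10 396, 380.2 and 377 FPKM, all above the control values given for them above. Their changes were 0.53 ± 0.07, 0.63 ± 0.09 and 0.42 ± 0.08 (SE; limma, adjusted p = 4.3e-05, 7.5e-05 and 0.00045). Uqcrb, the subunit that helps to bind ubiquinone, had 554, 670.2 and 520 FPKM after Yap siRNA, against 406, 395 and 415 FPKM in the controls. Uqcrc1 had 228, 184 and 246 FPKM after Yap siRNA, against 262, 225 and 269 FPKM in the controls, which overlapped (change -0.21 ± 0.10, adjusted p = 0.11 in limma). It was called lower under quantile normalization and with a replicate block. In complex II, Sdha had 300.3, 309 and 317 FPKM after Yap siRNA, above all controls (change 0.36 ± 0.08, adjusted p = 0.0015 in limma). Sdhb had 359, 334 and 356 FPKM (change 0.22 ± 0.08, adjusted p = 0.029 in limma), a call lost without control library 1 or 2 or Yap siRNA library 1 or 3 (adjusted p = 0.061 to 0.14). Sdhd had 225, 221 and 247 FPKM after Yap siRNA, against 232, 207 and 234 FPKM in the controls, with overlap and a change of 0.04 ± 0.07 (limma, adjusted p = 0.67).

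In complex IV, the small transmembrane subunits Cox8b and Cox7c had the largest changes after Yap siRNA. Cox8b, the muscle isoform of Cox8, had 252, 219.7 and 237 FPKM after Yap siRNA, against 91.7, 83.4 and 139.9 FPKM in the controls. Cox7c had 782, 876 and 674 FPKM after Yap siRNA, against 432, 430.2 and 462 FPKM in the controls. Cox7b had 1430.0, 1564 and 1341 FPKM after Yap siRNA, against 947, 955 and 1123 FPKM in the controls. None of these 3 genes overlapped between groups, and their changes were 1.2 ± 0.16, 0.81 ± 0.09 and 0.52 ± 0.09 (SE; limma, adjusted p = 0.0001, 7.8e-06 and 0.00032). The large subunits Cox4i1 and Cox5a again showed no call, with changes of 0.00 and 0.05. Cox7a2l, which takes part in joining complexes III and IV, had 179, 177 and 176 FPKM after Yap siRNA, against 154, 146 and 162 FPKM in the controls (change 0.20 ± 0.06, adjusted p = 0.019 in limma), a call lost under quantile normalization.

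**Figure D3:**
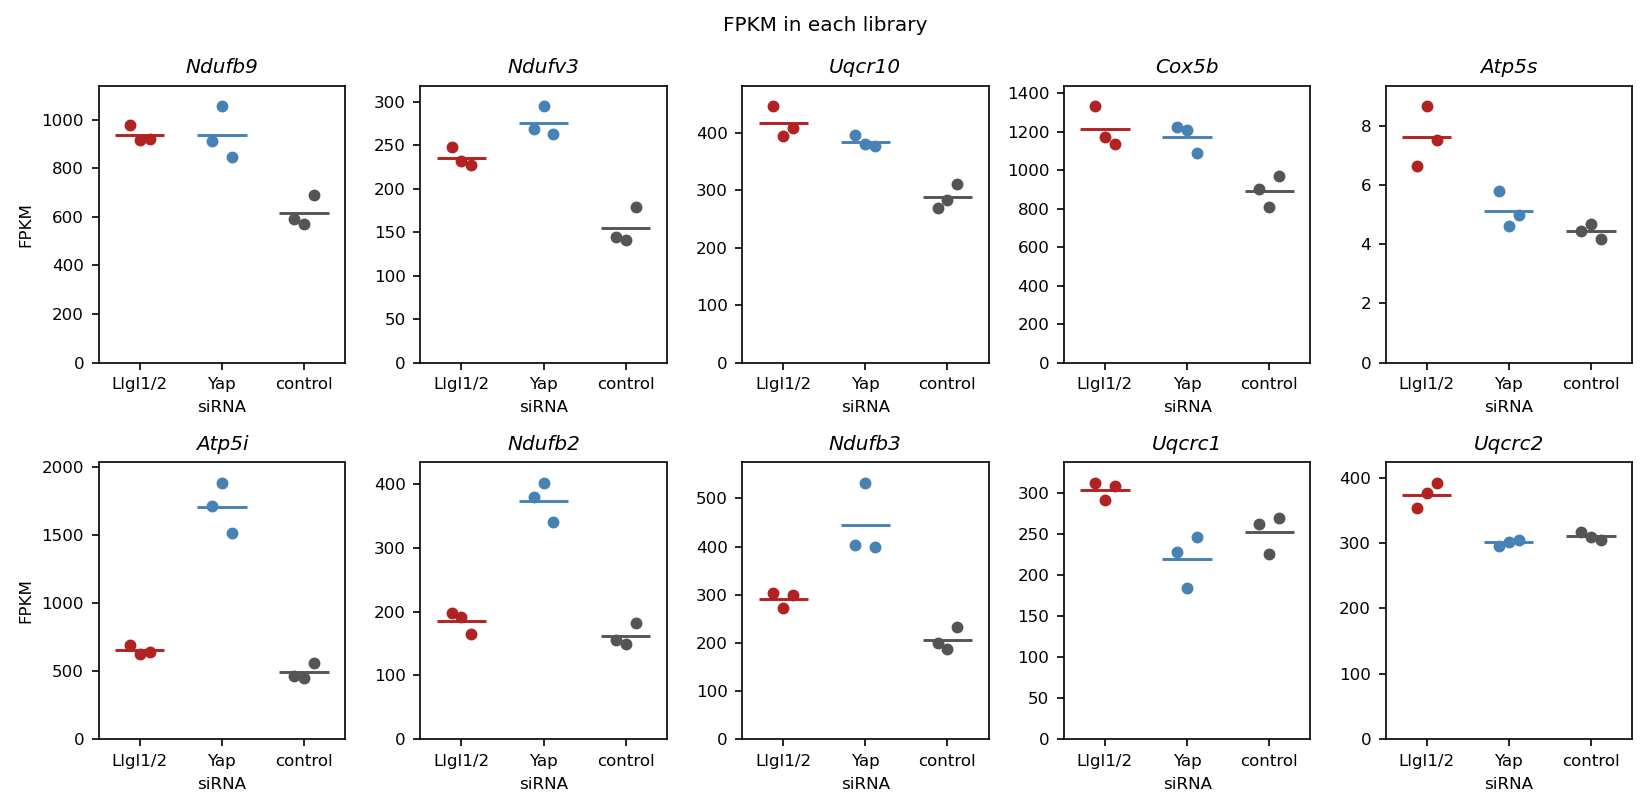
FPKM (y axes, from 0) of 10 genes in each of the 9 libraries by siRNA group (x axes); points are libraries and lines group means. In Ndufb9, Ndufv3, Uqcr10 and Cox5b both knockdowns lie above the controls, in Atp5i and Ndufb2 the Yap siRNA libraries stand far above the other groups, and in Uqcrc1 and Uqcrc2 the Llgl1/2 siRNA libraries are the highest.

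Other values measured in the same libraries belong beside the Yap siRNA result. Cytosolic ribosomal protein genes had 38 of 80 members higher and 6 lower after Yap siRNA (median 0.20), whereas after Llgl1/2 siRNA 0 were higher and 15 lower (median -0.09). Between the knockdowns 5 were higher and 52 lower after Llgl1/2 siRNA. Over all genes tested, 20.5% were higher and 27.5% lower after Yap siRNA, and 22.1% higher and 18.1% lower after Llgl1/2 siRNA. Between the knockdowns 28.0% of all genes were higher and 19.0% lower after Llgl1/2 siRNA. The part of the ribosomal protein genes in the Yap siRNA result was not tested. The genes with the smallest p among them were Rpl38, with 1013, 1125 and 821 FPKM after Yap siRNA against 381, 393 and 468 FPKM in the controls, and Rpl36 (changes 1.24 and 0.82), while Rpl17 and Rps4y2 had the smallest p after Llgl1/2 siRNA (changes -0.55 and -0.72). Yap siRNA library 2 was the lowest of the 9 for several of the 85 genes, such as Ndufa7 (160.1, 88.1 and 149 FPKM after Yap siRNA) and Ndufs7 (135, 94.1 and 145 FPKM), yet the highest for Atp5i, Ndufb3 and Cox7c. Without it the number of genes called higher after Yap siRNA was 45.

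The direct comparison showed how the composition differed between the knockdowns, apart from the shared controls. In Llgl1/2 siRNA libraries 15 of the 85 genes were higher and 22 lower than in Yap siRNA libraries, and 48 were not called. The 22 include Ndufa4l2. Among all genes tested 47.0% were called, 28.0% higher and 19.0% lower, and the medians were -0.03 for the 85 genes and 0.08 for all genes. The split moved with the scaling, to 26 higher and 12 lower under quantile normalization and to 6 higher and 30 lower under median-ratio scaling. Fewer than 22 were lower without Llgl1/2 siRNA library 2 or 3 or Yap siRNA library 1, at 14, 13 and 14. Between the knockdowns a count in either direction therefore rests on the scaling. Ratios within a library, given below, are not changed by a single factor per library such as median-ratio scaling, but quantile normalization can change them.

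The genes with the smallest p that were higher after Llgl1/2 siRNA were Ndufaf7, Uqcrc2 and Uqcrc1. Ndufaf7 had 11.9, 13.1 and 13.0 FPKM after Llgl1/2 siRNA, against 7.15, 7.11 and 7.99 FPKM after Yap siRNA. Uqcrc2 had 353, 377 and 392 FPKM after Llgl1/2 siRNA, against 296, 302 and 304 FPKM after Yap siRNA, and Uqcrc1 had 312, 291 and 309 FPKM after Llgl1/2 siRNA, against 228, 184 and 246 FPKM after Yap siRNA. No library of either group overlapped the other, and the differences were 0.70 ± 0.09, 0.31 ± 0.07 and 0.48 ± 0.10 (SE; limma, adjusted p = 5.6e-05, 0.0017 and 0.0017). Lower after Llgl1/2 siRNA were Atp5i, Ndufb2 and Ndufs5, an accessory subunit of complex I, by -1.38 ± 0.10, -1.01 ± 0.09 and -0.61 ± 0.10 (SE; limma, adjusted p = 2.2e-07, 2.4e-06 and 0.00027). Ndufb2 had 198, 192 and 166 FPKM after Llgl1/2 siRNA, against 379.9, 402 and 341 FPKM after Yap siRNA. Ndufs5 had 308, 385 and 359.6 FPKM after Llgl1/2 siRNA, against 525, 609 and 475 FPKM after Yap siRNA. These 6 genes kept their direction and their call under both other scalings.

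In complex III the core and Rieske genes were higher after Llgl1/2 siRNA in 3 of 3 cases and the small subunits lower in 2 of 5. The first count was 2 under median-ratio scaling and without Llgl1/2 siRNA library 1 or 3 or Yap siRNA library 2. The second was 3 under median-ratio scaling, 1 under quantile normalization, with no filter and without Llgl1/2 siRNA library 2, control library 2 or any 1 of the Yap siRNA libraries, and 0 without Llgl1/2 siRNA library 3. The classes were drawn up with these values known, so the counts are a description. Small subunits summed to 2.28, 2.06 and 1.97 times the core and Rieske genes in the Llgl1/2 siRNA libraries and to 2.95, 3.31 and 2.68 times in the Yap siRNA libraries, against 1.89, 2.08 and 2.13 times in the controls. The Yap siRNA libraries were apart from both other groups, which overlapped. In complex I the accessory subunits summed to 5.49, 5.27 and 5.16 times the core subunits after Llgl1/2 siRNA and to 6.13, 6.47 and 5.86 times after Yap siRNA, against 5.08, 4.99 and 5.16 times in the controls. In complex V 3 of 4 peripheral stalk genes were lower after Llgl1/2 siRNA than after Yap siRNA, and 0 of 4 under quantile normalization.

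**Figure D4:**
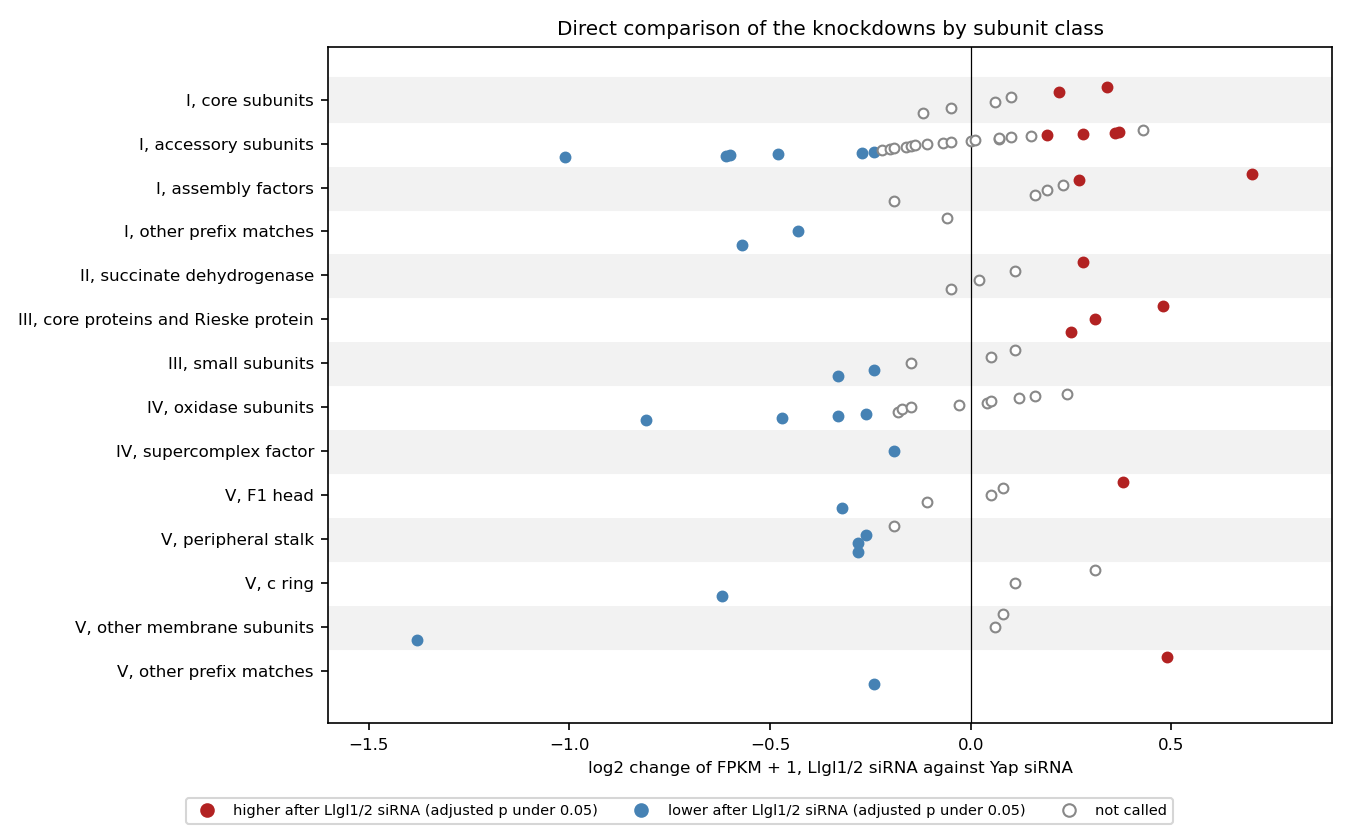
Log2 change of FPKM + 1 in Llgl1/2 siRNA against Yap siRNA libraries (x axis) for the 85 genes except 1 that is not shown, by complex and subunit class (y axis), from limma's fit; red points were called higher and blue points lower after Llgl1/2 siRNA at an adjusted p under 0.05, and open points were not called. The 3 core and Rieske genes of complex III lie at 0.25 to 0.48, all 4 peripheral stalk genes lie below 0, and Atp5i is farthest to the left at -1.38.

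Several subunits have a muscle and a general isoform, and their ratio within a library is not changed by a single scaling factor per library. Of the summed FPKM of Cox6a2 and Cox6a1, the muscle isoform Cox6a2 held 75.2%, 75.1% and 73.2% after Llgl1/2 siRNA and 77.3%, 77.7% and 78.9% after Yap siRNA, against 71.6%, 73.0% and 71.5% in the controls. Each knockdown was above the controls without overlap. Cox8b held 13.0%, 14.1% and 17.0% of Cox8b and Cox8a after Llgl1/2 siRNA and 19.7%, 20.0% and 18.3% after Yap siRNA, against 11.4%, 12.4% and 15.7% in the controls. Here the Llgl1/2 siRNA libraries overlapped the controls and the Yap siRNA libraries did not. Cox4i2, an oxygen-responsive isoform best known from lung, stayed under 1% of Cox4i2 and Cox4i1 in every library. Cox7a1, the muscle partner of Cox7a2, was not analysed here.

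The differences in the log2 ratio of Cox6a2 to Cox6a1 were 0.18 after Llgl1/2 siRNA and 0.46 after Yap siRNA, both against the controls (pooled SD 0.07, n = 3 each). For Cox8b to Cox8a they were 0.19 and 0.67 (pooled SD 0.26 and 0.21). With 3 libraries against 3 an exact two-sided permutation test cannot give a p under 0.1, and the ratio of Cox6a2 to Cox6a1 reached it in both comparisons, that of Cox8b to Cox8a after Yap siRNA only. Of the 19 isoform tests run 14 reached a permutation p of 0.1, so reaching it does not set the muscle isoforms apart. Over these tests the smallest adjusted p was 0.136, so no isoform difference passed the threshold, as the design does not allow it.

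Atp5g1, Atp5g2 and Atp5g3 encode the same mature c subunit from separate genes. Atp5g3 had 321, 308 and 344 FPKM after Yap siRNA, against 204, 167 and 229.95 FPKM in the controls (change 0.70 ± 0.11, adjusted p = 0.00011 in limma), and 234, 199 and 199.9 FPKM after Llgl1/2 siRNA. Relative to Atp5g1, its log2 ratio was lower than in the controls by -0.34 after Llgl1/2 siRNA and higher by 0.40 after Yap siRNA, without overlap in either case (exact permutation p = 0.1 each, the smallest possible). Atp5g2 had 361, 235 and 381 FPKM after Yap siRNA, with library 2 lowest, against 331, 286 and 353 FPKM in the controls. Atp5g1 and Atp5g2 have named copies in the genome and Atp5g3 has none.

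**Figure D5:**
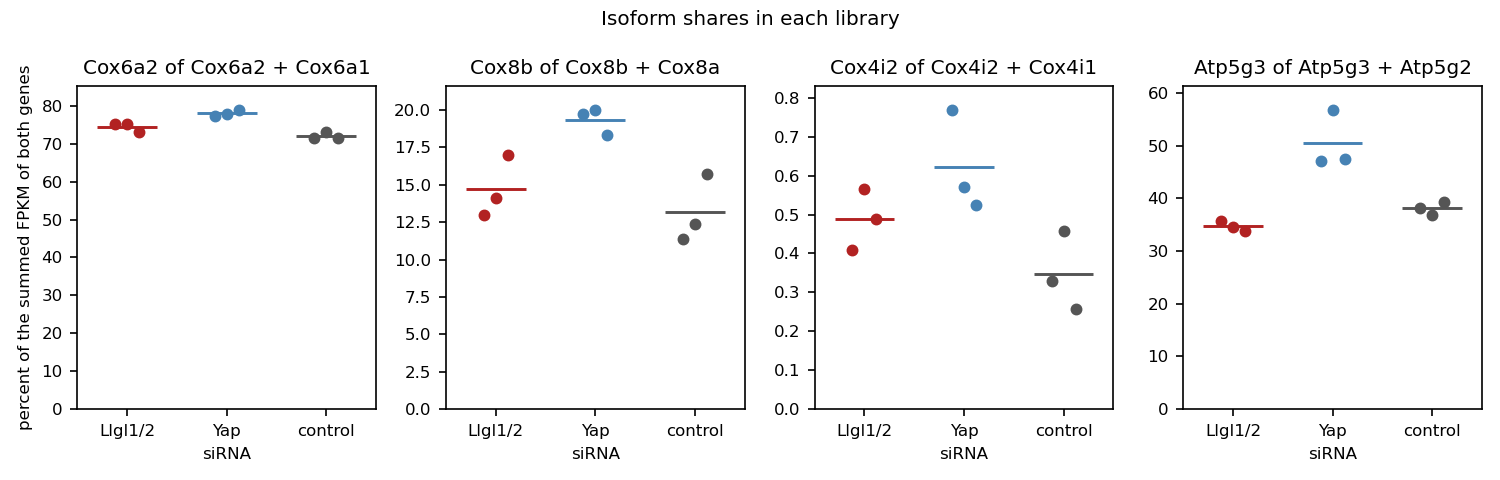
Share of a first isoform in the summed FPKM of itself and a second gene (y axes, percent, from 0) in each library by siRNA group (x axes); points are libraries and lines group means. Cox6a2 and Cox8b have their highest shares after Yap siRNA (77.3% to 78.9% and 18.3% to 20.0%), Cox4i2 is under 1% throughout, and Atp5g3 against Atp5g2 is highest after Yap siRNA and lowest after Llgl1/2 siRNA.

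The 2 least abundant genes were close to the filter. Ndufa4l2, a paralog of Ndufa4 induced by hypoxia, had 0.92, 0.79 and 1.71 FPKM after Llgl1/2 siRNA and 2.83, 1.72 and 1.90 FPKM after Yap siRNA, against 0.71, 0.48 and 0 FPKM in the controls. It reached 1 FPKM in 4 libraries, none of them a control, so it entered the list through the groups where it was higher and its calls are no support. Cox6b2, the testis isoform of Cox6b, had 2.39, 0.81 and 0.80 FPKM after Llgl1/2 siRNA and 1.00, 1.5 and 2.17 FPKM after Yap siRNA, against 1.45, 4.60 and 3.37 FPKM in the controls, with overlap in both comparisons and no call.

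Other genes of oxidative phosphorylation were read from lists, whose counts stand beside 22.1% higher and 18.1% lower over all genes after Llgl1/2 siRNA, and 20.5% and 27.5% after Yap siRNA. Counts near these shares, such as those for complex I and complex IV factors, nucleotide exchange and protein import after Llgl1/2 siRNA, are no result about the list. Subunits whose symbols fall outside the name rule were few. Usmg5, a membrane subunit of ATP synthase, rose by 0.38 after Llgl1/2 siRNA and 0.78 after Yap siRNA (limma, adjusted p = 0.013 and 6.2e-05), and cytochrome c1 (Cyc1) was not called in either (changes 0.18 and -0.06). LOC688869, which the current annotation names Cox6b1, rose by 0.53 and 0.83. LOC100911483, which it names Ndufa13, rose by 0.68 after Yap siRNA and had a change of 0.15 after Llgl1/2 siRNA that was not called. Subunits encoded in mitochondrial DNA were not analysed here.

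In Llgl1/2 siRNA libraries all 5 listed factors of complex V were higher than in the controls, among them Tmem70, which helps to build the c ring, at 40.9, 40.2 and 43.7 FPKM against 28.5, 23.2 and 26.6 FPKM in the controls (change 0.66 ± 0.09, adjusted p = 5.6e-05 in limma). After Yap siRNA 2 of the 5 were higher and 1 lower. The largest was Atpif1, the inhibitor of ATP hydrolysis by the synthase, with 1565, 1923 and 1336 FPKM after Yap siRNA, against 606, 555 and 666 FPKM in the controls (change 1.39 ± 0.11, adjusted p = 5.2e-07 in limma). Atpif1 rose by 0.44 ± 0.11 after Llgl1/2 siRNA. LOC690871, which the current annotation names Ndufaf8, a complex I assembly factor outside the name rule, rose by 0.27 after Llgl1/2 siRNA and 0.48 after Yap siRNA (limma, adjusted p = 0.046 and 0.0017). For complex I, 2 of 7 other factors were higher and 1 lower after Llgl1/2 siRNA, and 1 was higher after Yap siRNA: Ecsit rose in both (0.57 and 0.40), and Acad9 fell by 0.48 after Llgl1/2 siRNA. For complexes II, III and IV, 0 of 3, 2 of 6 and 4 of 19 were higher after Llgl1/2 siRNA, with 0, 0 and 2 lower, and 2 of 3, 1 of 6 and 4 of 19 were higher after Yap siRNA, with 0, 1 and 3 lower. Cox20 (0.45 and 0.89) rose in both comparisons, Cox11 (0.67) and Uqcc1 (0.35) after Llgl1/2 siRNA, Uqcc3 (0.64) after Yap siRNA, and Bcs1l, the loader of the Rieske protein, fell by 0.57 after Yap siRNA.

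Of 15 genes for cytochrome c, coenzyme Q and electron transfer flavoproteins, 7 were higher and 1 lower after Llgl1/2 siRNA, and 6 higher and 1 lower after Yap siRNA. Etfdh, which feeds electrons from fatty acid oxidation into coenzyme Q, had 94.6, 111 and 118 FPKM after Llgl1/2 siRNA and 162, 167 and 153 FPKM after Yap siRNA, against 77.3, 71.4 and 81.2 FPKM in the controls. It rose by 0.48 ± 0.08 and 1.06 ± 0.08 (SE; limma, adjusted p = 0.00059 and 4.4e-07). Adck3, which supports coenzyme Q synthesis, rose by 0.73 and 0.94, and Coq6, a hydroxylase of that pathway, by 0.61 after Llgl1/2 siRNA, with 0.01 after Yap siRNA. Of 7 genes for the exchange of ATP, ADP and phosphate (carriers, outer membrane channels and the creatine kinase Ckmt2), 2 were higher after Llgl1/2 siRNA (Vdac1 by 0.41, Slc25a3 by 0.33), and after Yap siRNA 1 was higher and 1 lower, the adenine nucleotide carrier Slc25a5 (-0.50).

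Among 19 regulators of mitochondrial biogenesis 7 were higher and 0 lower after Llgl1/2 siRNA, and 7 higher and 4 lower after Yap siRNA. Esrrg, a nuclear receptor that drives genes of oxidative metabolism in the heart, had 21.0, 26.2 and 24.2 FPKM after Llgl1/2 siRNA and 25.7, 29.1 and 30.4 FPKM after Yap siRNA, against 13.7, 15.7 and 17.7 FPKM in the controls. It rose by 0.57 ± 0.11 and 0.82 ± 0.11 (SE; limma, adjusted p = 0.00089 and 3.3e-05). Tfb2m, a transcription factor of mitochondrial DNA, rose by 0.50 and 0.29. The coactivator gene Ppargc1a had 24.7, 31.6 and 30.1 FPKM after Llgl1/2 siRNA and 20.2, 30.2 and 28.1 FPKM after Yap siRNA, against 17.0, 20.5 and 24.4 FPKM in the controls, and it was called after Llgl1/2 siRNA (0.47 ± 0.15, adjusted p = 0.028 in limma) but not after Yap siRNA (0.32 ± 0.15, adjusted p = 0.1). Its relative Pprc1 fell by 0.53 after Yap siRNA. Of 71 genes with the Mrpl and Mrps symbols of mitochondrial ribosomal proteins 17 (23.9%) were higher and 3 lower after Llgl1/2 siRNA, near the 22.1% called higher over all genes. After Yap siRNA 27 (38.0%) were higher and 8 lower, against 20.5% higher over all genes, and Mrpl57 rose by 1.19. Mrps25 rose by 0.40 after Llgl1/2 siRNA, as did Mrps36 by 0.52, which the current annotation names Kgd4, a subunit of the oxoglutarate dehydrogenase complex and not of the ribosome. Of 20 genes for protein import 4 were higher and 1 lower (Timm23, -0.31) after Llgl1/2 siRNA, and 5 higher and 7 lower after Yap siRNA, with Tomm40 at -0.83 and Tomm20 at -0.53.

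The stretches just upstream of 5 genes whose results stand out above are shown to let the sequence be read beside the values. Atp5i and Ndufv3 were called higher after both knockdowns, by 0.42 and 0.61 after Llgl1/2 siRNA and 1.80 and 0.83 after Yap siRNA. Against the controls Atp5g3 and Cox8b were called after Yap siRNA only, and Uqcrc2 after Llgl1/2 siRNA only. Stretches were also drawn for Cox6a2, Cox7c, Ndufb2, Ndufb3, Ndufb4, Ndufs5 and Uqcrc1 and are not shown. Of these, only that of Uqcrc1 held a whole searched motif, so motifs are more frequent among those shown. Each stretch is the last 120 bases before the annotated transcription start, from RefSeq's promoter table of the GRCr8 build, 5′ to 3′ on the gene's strand. Capitals mark letters of a searched motif on either strand. Atp5i (chr14:1464740-1464859, + strand), Atp5g3 (chr3:79220665-79220784, - strand), Cox8b (chr1:205408274-205408393, - strand), Ndufv3 (chr20:9613666-9613785, + strand) and Uqcrc2 (chr1:184599120-184599239, + strand) read as follows.
Atp5i: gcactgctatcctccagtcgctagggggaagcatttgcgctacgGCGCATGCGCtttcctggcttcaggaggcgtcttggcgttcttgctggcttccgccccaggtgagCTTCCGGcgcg
Atp5g3: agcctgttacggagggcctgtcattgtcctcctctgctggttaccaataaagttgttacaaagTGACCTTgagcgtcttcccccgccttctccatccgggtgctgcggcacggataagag
Cox8b: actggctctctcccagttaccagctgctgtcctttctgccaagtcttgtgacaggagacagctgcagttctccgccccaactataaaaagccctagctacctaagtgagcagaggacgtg
Ndufv3: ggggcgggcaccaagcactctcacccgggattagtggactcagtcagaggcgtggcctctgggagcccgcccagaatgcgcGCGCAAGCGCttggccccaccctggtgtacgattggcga
Uqcrc2: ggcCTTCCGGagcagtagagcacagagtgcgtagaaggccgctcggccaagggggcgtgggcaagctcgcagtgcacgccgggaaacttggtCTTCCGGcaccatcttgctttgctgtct

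The capitals in Atp5i are an NRF1 motif (GCGCA, any base, GCGC) and, close to the start, an ETS motif (CCGGAAG, read here on the other strand), the letters bound by GABPA and its relatives. Those in Atp5g3 are an estrogen-related receptor motif (AAGGTCA, on the other strand), those in Ndufv3 an NRF1 motif, and those in Uqcrc2 a pair of ETS motifs. Cox8b has no searched motif in its 300-base window of 250 bases before and 50 after the start. A window was found for 72 of the 85 genes, and the motifs were searched on both strands of it. The NRF1 letters were in 15 (20.8%) of the 72 windows, against 4.25% of all 33469 windows in the table, and the ETS letters in 20 (27.8%), against 8.75%. The YY1 letters (AAGATGGC) were in 14 (19.4%), against 3.17%, and the receptor letters in 10 (13.9%), against 4.61%. GGAATG, the letters of the TEAD factors through which YAP acts, were in 6 (8.33%), against 14.2%. After Llgl1/2 siRNA, 6 of the 15 genes with NRF1 letters, 11 of the 20 with ETS letters, 2 of the 10 with receptor letters, 10 of the 14 with YY1 letters and 3 of the 6 with TEAD letters were higher, against 35 of 57, 30 of 52, 39 of 62, 31 of 58 and 38 of 66 without them. After Yap siRNA these counts were 8, 10, 6, 9 and 2 with the letters and 28, 26, 30, 27 and 34 without them. Matches are a description of letters in a window, and the motifs and the genes shown were chosen with the expression values known. The 33469 windows were not limited to genes tested here or to genes of similar level. The sets are therefore unlike, and whether any letters are enriched or depleted in these genes was not tested.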

How the data were processed

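Bulk RNA-seq was deposited as 1 table of FPKM values per gene, computed by the authors. Per the submitters' processing notes Bowtie2, HISAT and the rn6 build were used, with no version or role given, and per the labels' protocols low-input poly-A libraries were sequenced on a BGISEQ-500. Strandedness and read totals are not given in the sources used here, so absolute depth is unknown. Relative depth was estimated from low FPKM values, and the precision of this estimate was not assessed. Against Llgl1/2 siRNA library 1 it was 0.99 and 1.00 in Llgl1/2 siRNA libraries 2 and 3. It was 1.06 to 1.10 in the Yap siRNA libraries and 1.10 to 1.11 in the controls. The part of this difference in the results was not tested. The table holds 1 further value column, equal to Llgl1/2 siRNA library 2 in all 14636 rows, which was not used. Groups follow the labels.

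The filter of 1 FPKM in 3 or more libraries left 10789 genes and removed 3847. log2(FPKM + 1) was fitted in limma 3.58.1 (R 4.3.3) over all 9 libraries, with eBayes trend and robust options and Benjamini-Hochberg adjustment over all genes, after a test on simulated data. Tables, exact permutation tests and figures used Python 3.11.15 with pandas 2.3.3, numpy 2.4.6, scipy 1.17.1 and matplotlib 3.10.9. Named members are the 3 with the smallest p in each complex against the control, called or not, called members against their complex's direction, the 3 with the smallest p each way between the knockdowns, isoform sets and the 2 just inside the filter. Up to 2 genes by smallest p were named from each pathway list. Alternatives were another pseudocount (0.1), no filter or a filter at 10 FPKM, quantile and median-ratio scaling, a replicate block, the 6 libraries compared alone, an adjusted p of 0.01 and leaving out each library.

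Same-numbered Llgl1/2 and Yap siRNA libraries deviated together (correlations 0.24, 0.12 and 0.12), which pairs them by the rule used. The labels do not say why. Among the members the paired fit of that comparison kept 36 of 37 calls and lost Ndufa4l2. The members, gene lists, subunit classes, motifs and promoters were chosen with earlier results of these data known. Gene names, overlaps and copies come from RefSeq's GRCr8 annotation, which matched all 85 genes by ID. No genome coordinates of rn6 were used. For 1 of the 85 genes, which the counts, sums and medians include, no value of its own is reported here.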

Additional observations from a re-analysis of the deposited data

How the results depend on the processing

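Leaving out 1 library gave 30 to 54 genes higher and 0 to 1 lower for Llgl1/2 siRNA against control, with 30 without control library 2. It gave 38 to 47 higher and 0 to 2 lower for Yap siRNA against control, and 10 to 16 higher and 13 to 25 lower for Llgl1/2 against Yap siRNA. The count lower after Yap siRNA, 1 as reported, was 2 with the filter at 10 FPKM, 4 with a replicate block, and 0 under median-ratio scaling, with only the 6 libraries compared and at an adjusted p of 0.01. Between the knockdowns the counts higher and lower were 26 and 12 under quantile normalization, and 5 and 10 at an adjusted p of 0.01. Under median-ratio scaling 6 were higher, and the ratio of sums was 0.88 instead of 0.93. The causes were not tested.

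With the replicate block the counts higher and lower were 55 and 0 for Llgl1/2 siRNA and 47 and 4 for Yap siRNA, both against control. The rule used did not pair those libraries with the controls by number, and the labels leave this open. Correlations of same-numbered libraries were 0.11, 0.01 and 0.09 for Llgl1/2 siRNA and 0.17, 0.04 and 0.10 for Yap siRNA. Library 2 did not correlate best with its own number. Some of these values are close to the 0.12 of libraries 2 and 3 between the knockdowns. The rule therefore cannot exclude a pairing with the controls. Between the knockdowns, where the rule paired the libraries, the block gave 20 and 22. It lost the call of Ndufa4l2 and added Atp5g2, Cox6a1, Ndufa7, Ndufa9, Ndufaf4 and Ndufb7.

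Over 37 results for named genes and 17 alternatives, 603 of 628 values kept their direction and side of the threshold. The 22 that lost the call belong to Sdhc after Llgl1/2 siRNA and to Ndufaf7 and Sdhb after Yap siRNA. Sdhd after Yap siRNA, not called at 0.04, was -0.00 under quantile normalization, -0.02 without control library 2 and -0.01 without Yap siRNA library 3, in a range of -0.02 to 0.07 when 1 library was left out. With absolute depth unknown, the precision of low values such as Ndufa4l2 and Cox6b2 could not be given.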
